A study of Homo sapiens with 14 samples.

Results

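Gene expression after 24 h of FOXA1 degradation was compared with that at 0 h. The cells were 22Rv1, a human line established from prostate cancer that grows as an epithelium. The cells are labelled as carrying a FOXA1_dTAG genotype. In this system a tag fused to a protein binds a small molecule that also binds a ubiquitin ligase, and the tagged protein is then sent to the proteasome. Both the 0 h and the 24 h cells carry the tag. The comparison uses 4 of the 14 libraries of the series, 2 at each time, and all 19607 genes that passed a filter on low counts out of 57905 listed features. The labels mention the degrader and a DMSO vehicle without saying which libraries received which. No title names cells kept in vehicle until 24 h, or cells without the tag that were treated. The effects of losing FOXA1, of the hours elapsed and of the compound therefore cannot be told apart. Libraries at 1 h of degradation (2) and libraries with a control hairpin, shCtrl (2), or a hairpin against FOXA1, shFOXA1 (2), serve below to place the 24 h changes. They came from cells of the same line, except that the shCtrl titles write the line as 22Rv2. The 1 h titles name FOXA1_dTAG, and the hairpin titles do not. The labels do not say that the replicates were separate cultures, so each p-value measures only the spread between these libraries.

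FOXA1 is a forkhead protein that can bind its sites within closed chromatin and open them to other factors, which is why it is called a pioneer factor. In luminal prostate cells many of the enhancers it opens serve genes that respond to androgens, among them secreted kallikreins and transporters. The series title concerns the entry of cohesin and its loader NIPBL to chromatin, a step that shapes loops between enhancers and promoters.

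The 4 libraries held between 32092815 and 35544498 counts. The 2 libraries of each group differed by somewhat more than counting noise, with a chi-square per degree of freedom of 2.85 at 0 h and 3.04 at 24 h, so none was counted as a repeat of another. The hairpin pairs used below differed by more, at 4.04 in shCtrl and 11.8 in shFOXA1. Time separated the groups on the first principal component, which held 76.2% of the variance. Mitochondrial transcripts took 10.9% and 10.6% of counts at 0 h and 8.92% and 8.60% at 24 h. Epithelial markers fitted the label: KRT8, a luminal keratin, had 2054 and 2037 CPM (the count scaled to a common library size) at 0 h and 2784 and 2669.8 CPM at 24 h. The basal factor TP63, the neuroendocrine factor NEUROD1, the fibroblast gene POSTN and the leukocyte gene TYROBP had 0 counts in all 4 libraries. Other members of those marker lists were detected: the tested members summed to 1516 and 1495 CPM at 0 h and 1668 and 1689.9 CPM at 24 h for the neuroendocrine list (15 of 26), and those of the basal, fibroblast and leukocyte lists are given below. Of 11 endothelial markers 3 were tested and none was called. Bulk RNA cannot tell fewer cells of a kind from less RNA per cell, and that holds for every list below.

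FOXA1 mRNA was 171 and 169 CPM at 0 h and 205 and 196 CPM at 24 h. The groups did not overlap, and the fitted log2 fold change was 0.23 ± 0.04 (SE, adjusted p = 7.6e-06). Because the degrader acts on the protein, this mRNA does not measure FOXA1 loss, and no protein measurement was analysed here. Its paralogs FOXA2 and FOXA3 were too low to test, with at most 3 and 5 counts in any of the 4 libraries.

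At 24 h, 4333 genes (22.1% of those tested) were higher and 4862 (24.8%) were lower than at 0 h at an adjusted p under 0.05, 9195 in all (46.9%). Scaled by library totals alone, 5025 were higher and 4248 lower, so the larger direction depends on the scaling. Most of these changes were modest. Among the called genes 680 were at least 2-fold higher (3.47% of all tested genes) and 864 at least 2-fold lower (4.41%). The far tail was one-sided: 69 called genes had fallen by more than 3 on the log2 scale and 22 had risen by more than 3. Protein-coding genes were called lower (30.9%) more often than higher (24.7%), whereas 15.3% of long noncoding genes were called higher and 9.38% lower. The median log2 fold change of all tested genes was 0.0056. The shares of each direction over all tested genes are the background against which the gene lists below are read. Across genes, the change had a Spearman rho of 0.170 with GC content, given as a description since genes are not independent replicates.

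**Figure D1:**
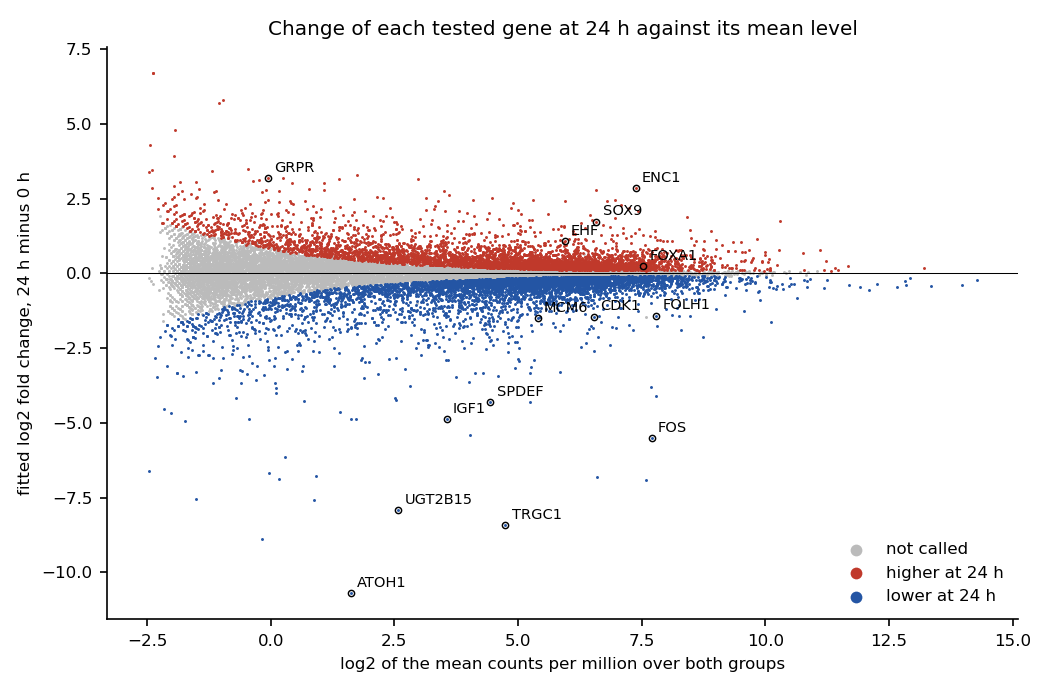
Each dot is 1 of the 19607 tested genes, placed by the log2 of its mean CPM over both groups (x axis) and by its fitted log2 fold change, 24 h minus 0 h (y axis); red and blue mark called genes and circles mark named ones. The falls of ATOH1, TRGC1, UGT2B15 and FOS reach past -5, while the circled rises stay between 0.23 and 3.17.

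A group of tissue-restricted transcripts was nearly or wholly lost by 24 h. ATOH1, a basic helix-loop-helix factor of secretory and sensory lineages, had 207 and 217 counts at 0 h and 0 counts in both 24 h libraries, at least 134-fold lower against a floor of 3 counts over the group. The long noncoding RNA HISLA went from 59 and 63 counts to 0 in both, at least 38.6-fold lower by the same floor. UGT2B15, which glucuronidates androgens and so prepares them for removal, went from 338 and 484 counts to 2 and 1, a ratio of 260 (95% exact counting interval 88.7 to 1260). Other members of its family followed the same course: UGT2B10 went from 69 and 84 counts to 0 and 1, and UGT2B11 from 21 and 19 counts to 1 and 0. UGT2B sequences are close to each other, so reads may have been split between them. The apolipoprotein gene APOA5 had 104 and 149 counts at 0 h and 0 and 1 at 24 h, a ratio of 240 (42.7 to 9520). RNLS, which encodes the flavoprotein renalase, went from 68 and 65 counts to 0 and 1, a ratio of 126 (22.3 to 5020). DSCAM-AS1, a long noncoding RNA best known from hormone-dependent breast cancer, went from 123 and 135 counts to 1 and 1, a ratio of 122 (33.5 to 1020). All but UGT2B11 were chosen among genes whose groups do not overlap, so that separation is no added evidence. The intervals cover counting error only.

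Other large falls had more counts behind them. TRGC1, the T cell receptor gamma constant gene from which prostate cells make the TARP transcript, was 53.3 and 53.7 CPM at 0 h and 0.215 and 0.0916 CPM at 24 h (log2 fold change -8.41 ± 0.16, adjusted p = 9.19e-28). Its near copy TRGC2 had 93 and 73 counts at 0 h and 1 and 1 at 24 h, and the deposited counts may not separate the pair. IGF1, the growth factor ligand of IGF1R, fell from 23.0 and 22.6 CPM to 0.893 and 0.641 CPM (-4.89 ± 0.15, adjusted p = 1.93e-22). PTPRB, a receptor tyrosine phosphatase, fell from 72.7 and 71.4 CPM to 3.54 and 3.73 CPM (-4.31 ± 0.08). SMOC1, a secreted matrix protein, fell from 697 and 697 CPM to 156 and 163 CPM (-2.13 ± 0.04). TRGC1, TRGC2 and IGF1 were chosen among genes whose groups do not overlap. PTPRB and SMOC1 were chosen by adjusted p, which also favours groups that lie apart. The separation of the groups in these genes is therefore no added evidence.

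The letters TGTTTAC, a core that forkhead proteins bind, were searched on both strands in the 250 bases before the start of 12512 tested genes that RefSeq lists (build GRCh38.p14). They stood in 1.99% of all these windows, in 1.91% of the windows of genes at least 2-fold lower and in 2.3% of those at least 2-fold higher. The related letters TGTTTGC stood in 2.31% of all windows and in 4.52% of those of genes at least 2-fold lower. Most of the genes that fell hard thus had neither string so close to their start, which says nothing about sites farther away. UGT2B15 and IGF1 are shown because they are named falls whose windows hold TGTTTAC. Each is written 5′ to 3′ on the strand of the gene, with the motif in capitals, read here on the opposite strand. UGT2B15, on the minus strand at chr4:68670722-68670852, has it 183 bases before its start. A second run of capitals 172 bases before the start is the opposite strand of TGTTCT, a steroid receptor half-site found in 7.79% of windows. IGF1, on the minus strand at chr12:102481927-102481997, has TGTTTAC 247 bases before its start. These are letter matches and not measured sites.
UGT2B15: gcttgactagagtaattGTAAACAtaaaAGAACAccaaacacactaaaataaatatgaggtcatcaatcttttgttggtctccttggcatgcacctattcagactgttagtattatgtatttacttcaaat
IGF1: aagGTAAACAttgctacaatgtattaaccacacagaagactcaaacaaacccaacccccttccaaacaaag

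The largest rises were smaller than the largest falls and many began from very low levels. ENC1, an actin-binding kelch protein, rose from 40.9 and 40.3 CPM to 285 and 300 CPM (log2 fold change 2.85 ± 0.04, adjusted p = 6.41e-30). NRCAM, an adhesion molecule of neurons, rose from 23.8 and 25.0 CPM to 162 and 172 CPM (2.78 ± 0.05, adjusted p = 4.83e-28). Both were chosen among genes whose groups do not overlap. Among abundant transcripts, LPL, the lipoprotein lipase, rose from 572 and 567 CPM to 1906 and 1949 CPM (1.76 ± 0.03). MME, the cell surface peptidase neprilysin, rose from 54.3 and 54.8 CPM to 240 and 254 CPM (2.18 ± 0.04). SCGN, a calcium-binding protein, rose from 38.2 and 38.5 CPM to 211 and 208 CPM (2.45 ± 0.04). Some fold changes above 3 on the log2 scale came from scarcer transcripts: HS3ST3B1 (3.19 ± 0.38), GRPR (3.17 ± 0.42), ISLR2 (3.15 ± 0.26) and the hair keratin KRT32 (3.11 ± 0.46) were at most 0.686 CPM at 0 h and 4.77 CPM at 24 h. TPSP2 and CD24P4, also among the rises, are pseudogenes whose reads may come from a related gene. The strand setting of the counting is not given in the sources used here. For the antisense and divergent transcripts named by the rule, such as DSCAM-AS1, CCDC54-AS1 and FIGNL2-DT, reads of an overlapping partner therefore cannot be told apart.

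**Figure D2:**
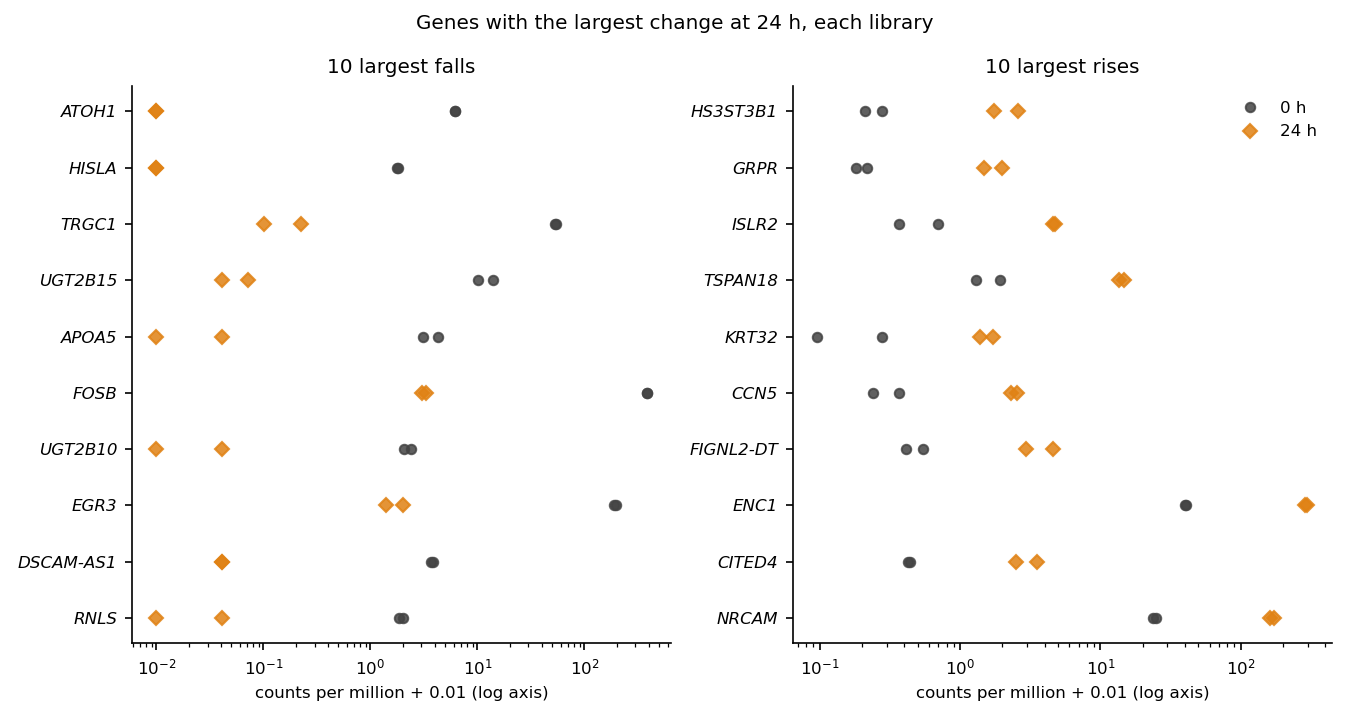
CPM plus 0.01 in each library (x axis, log scale) for the 10 genes with the largest falls (left) and rises (right); grey circles are the 2 libraries at 0 h and orange diamonds the 2 at 24 h. ATOH1 and HISLA sit at the left edge in both 24 h libraries because they had 0 counts. The genes were chosen among those whose groups do not overlap.

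Androgen-responsive genes moved in both directions, with more falls than rises. Of 32 tested 21 were lower and 8 higher, against 24.8% lower and 22.1% higher of all genes, and the median log2 fold change was -0.47 against 0.0056. MAF, a leucine zipper factor, fell from 136 and 140 CPM to 26.8 and 27.9 CPM (log2 fold change -2.33 ± 0.05, adjusted p = 1.92e-26). The metalloreductase STEAP1 fell from 90.6 and 92.1 CPM to 24.3 and 23.3 CPM (-1.94 ± 0.05), and PLPP1, a lipid phosphatase, from 248 and 256 CPM to 70.4 and 65.2 CPM (-1.90 ± 0.04). FOLH1, which encodes the imaging and therapy antigen PSMA, fell from 320 and 327 CPM to 118 and 125 CPM (-1.41 ± 0.04). In these 4 genes the groups were far apart, which their choice as large called changes favours. Some of the best-known members went the other way. KLK3, which encodes PSA, rose from 143 and 143 CPM to 183 and 180 CPM (0.34 ± 0.04, adjusted p = 9.47e-09). The glucocorticoid and androgen target FKBP5 rose from 911 and 897 CPM to 1241 and 1250.4 CPM (0.46 ± 0.03), and the protease gene TMPRSS2 from 29.6 and 30.9 CPM to 48.3 and 46.4 CPM (0.65 ± 0.06). KLK2, a kallikrein beside KLK3, fell slightly from 439 and 468 CPM to 356 and 351 CPM (-0.36 ± 0.04).

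Antigens used as targets of antibodies or ligands in prostate cancer split, with 7 of 13 tested lower and 5 higher: STEAP2 fell from 349 and 348 CPM to 102 and 102 CPM, while CD46 rose from 785 and 813 CPM to 1222 and 1229 CPM. By DESeq2, or without 24 h replicate 1, 2 of these antigens were higher.

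Luminal identity genes split by member as well, 11 of 23 tested being higher and 7 lower. SPDEF, an ETS factor of secretory epithelium, fell from 42.8 and 39.8 CPM to 2.31 and 1.83 CPM (log2 fold change -4.32 ± 0.11, adjusted p = 1.8e-24), the largest fall of the list. In contrast HOXB13, a factor of prostate identity, rose from 257 and 243 CPM to 391.6 and 371.4 CPM (0.61 ± 0.04), and GATA2 from 369 and 357 CPM to 553 and 527 CPM (0.57 ± 0.04). The ETS factor EHF rose from 41.2 and 37.8 CPM to 80.4 and 87.1 CPM (1.09 ± 0.05). Keratins were mostly higher, 8 of 9 tested, with a median of 0.52, and none was lower. By DESeq2, or without 24 h replicate 2, 5 keratins were higher. Among 11 tested basal markers 5 were higher and 1 lower (2 without 0 h replicate 1). KRT15 rose from 15.7 and 13.8 CPM to 45.4 and 45.7 CPM (1.63 ± 0.07) and CD44 from 59.6 and 57.8 CPM to 177 and 168 CPM (1.55 ± 0.04), while TP63 stayed at 0 counts and KRT5 at no more than 8. The summed level of the tested basal markers was 139 and 134 CPM at 0 h and 291 and 289 CPM at 24 h. Most of that difference was CD44 and KRT15. By DESeq2 4 of the tested basal markers were higher, KRT14 having lost its call. In the neuroendocrine list 2 of 15 tested were higher (4 without 0 h replicate 1) and 3 lower, and CHGB, a granin, fell from 39.5 and 38.6 CPM to 21.5 and 23.3 CPM.

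DNA replication genes were lower without exception among those tested. All 43 members tested passed as lower, 33 of them at least 2-fold (4.41% of all genes), with a median log2 fold change of -1.45. The list spans the licensing proteins that load the helicase, the helicase itself, polymerases, nucleotide synthesis and the E2F factors that switch these genes on at the start of S phase. CDC6, a licensing protein, fell from 56.3 and 54.3 CPM to 10.0 and 9.56 CPM (-2.50 ± 0.07). CLSPN, a fork checkpoint mediator, fell from 19.5 and 19.3 CPM to 3.32 and 3.11 CPM (-2.59 ± 0.11), and CDC45, which activates the helicase, from 33.6 and 36.3 CPM to 5.26 and 6.69 CPM (-2.55 ± 0.10). RRM2, the regulated subunit of ribonucleotide reductase, fell from 194 and 197 CPM to 36.5 and 37.7 CPM (-2.40 ± 0.05, adjusted p = 9.36e-28). Activator factors fell with them: E2F1 went from 50.2 and 49.3 CPM to 13.1 and 15.5 CPM (-1.80 ± 0.07) and E2F2 from 32.9 and 32.8 CPM to 8.31 and 8.03 CPM (-2.01 ± 0.08).

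Mitotic genes fell too, by less. Of 48 tested 47 were lower and none higher, 7 at least 2-fold lower, with a median of -0.74. CENPA, the centromeric histone, was the exception at -0.03. CDK1, the kinase that drives entry into mitosis, fell from 133 and 137 CPM to 50.2 and 48.9 CPM (-1.45 ± 0.05, adjusted p = 3.99e-22). CCNB1, its cyclin, fell from 103 and 104 CPM to 63.1 and 66.7 CPM (-0.67 ± 0.05) and the proliferation marker MKI67 from 147 and 143 CPM to 84.8 and 79.0 CPM (-0.82 ± 0.04). Among G1 regulators 11 of 18 tested were lower and 3 higher. The inhibitors of cyclin-dependent kinases did not move as one: CDKN1C rose from 15.1 and 15.1 CPM to 26.7 and 25.6 CPM (0.79 ± 0.08), CDKN2A fell from 36.4 and 36.6 CPM to 19.3 and 17.1 CPM (-1.004 ± 0.073) and CDKN1A, the p53 target p21, fell from 320 and 311 CPM to 287 and 276 CPM (-0.17 ± 0.04). Of 28 tested p53 targets 16 were lower and 3 higher, with a median of -0.19.

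Promoter windows of the cell cycle lists are shown because 2 letter strings known from such genes were more frequent there than among all tested genes. TTTCGCG, a core that E2F proteins bind, stood in 5 of 36 replication gene windows (13.9%) and in 1.85% of all tested windows. TTTGAA, the cell cycle homology region of genes expressed in G2 and M, stood in 23 of 40 mitosis windows (57.5%) and in 8.61% of all tested windows. No test was made of these shares. The windows come from RefSeq, build GRCh38.p14, with the motif in capitals, on the strand of the gene except in MCM6, where both copies read on the opposite strand. E2F2 lies at chr1:23531253-23531333 (minus), E2F1 at chr20:33686390-33686470 (minus) and MCM6, a helicase subunit, at chr2:135876513-135876603 (minus). CDK1 lies at chr10:60778133-60778213 (plus) and NCAPG, a condensin subunit, at chr4:17810898-17810978 (plus).
E2F2: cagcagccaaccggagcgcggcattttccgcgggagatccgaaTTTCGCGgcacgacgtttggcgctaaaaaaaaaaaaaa
E2F1: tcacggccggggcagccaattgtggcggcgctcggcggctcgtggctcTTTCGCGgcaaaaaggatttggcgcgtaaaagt
MCM6: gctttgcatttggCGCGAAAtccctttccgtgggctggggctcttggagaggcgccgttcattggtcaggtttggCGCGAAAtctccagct
CDK1: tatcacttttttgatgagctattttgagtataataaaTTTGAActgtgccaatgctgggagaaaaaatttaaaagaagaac
NCAPG: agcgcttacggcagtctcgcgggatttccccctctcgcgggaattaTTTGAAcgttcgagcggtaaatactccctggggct
MCM6 mRNA fell from 60.1 and 64.6 CPM to 21.0 and 22.7 CPM (-1.51 ± 0.06) and NCAPG mRNA from 45.2 and 43.6 CPM to 18.0 and 18.5 CPM (-1.28 ± 0.07).

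Cohesin genes, the subject of the series title, went both ways. Of 21 tested 8 were lower and 5 higher, with a median of -0.08. After correction for GC content and length 8 were higher and 7 lower. ESCO2, the acetyltransferase that locks cohesin on replicated DNA, fell from 36.8 and 33.0 CPM to 7.76 and 8.03 CPM (-2.14 ± 0.09, adjusted p = 3.68e-19). CDCA5, also called sororin, which guards cohesion, fell from 44.7 and 42.1 CPM to 15.6 and 15.4 CPM (-1.49 ± 0.07). The ring subunits SMC1A (-0.57 ± 0.04) and SMC3 (-0.28 ± 0.04) fell less. The loader NIPBL was slightly higher, at 109 and 106 CPM against 121 and 123 CPM (0.19 ± 0.04, adjusted p = 0.000351), as was its partner MAU2 (0.30 ± 0.04). CTCF, the boundary protein, did not pass the test at -0.08.

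Growth and biosynthesis genes were widely but moderately lower. Of 33 tested genes of ribosome biogenesis 32 were lower and none higher, with a median of -0.43 and no member past 2-fold. NOLC1, a nucleolar chaperone, fell from 359 and 349 CPM to 193 and 197 CPM (-0.86 ± 0.04), and MYC itself from 197 and 187 CPM to 162 and 157 CPM (-0.27 ± 0.04). All 13 mitochondrially encoded mRNAs were lower, by 0.16 to 0.56 on the log2 scale, beside the lower mitochondrial share of counts given above. ATF4 targets, which supply amino acids and one-carbon units, had 23 of 31 tested lower and 3 higher, with a median of -0.47. PSAT1 of serine synthesis fell from 65.6 and 69.3 CPM to a mean of 20.7 ± 1.05 CPM (SD, n = 2; log2 fold change -1.70 ± 0.06) and MTHFD2 of mitochondrial folate metabolism from 87.4 and 90.2 CPM to 36.9 and 36.2 CPM (-1.28 ± 0.05). ATF4 mRNA did not pass the test, at 436 and 417 CPM against 415 and 409 CPM. Cholesterol genes had 21 of 29 tested lower and 2 higher (median -0.41), chaperones of the endoplasmic reticulum 21 of 29 lower and 2 higher (-0.26), and heat shock proteins 17 of 24 lower and 3 higher (-0.39). SQLE, which commits squalene to sterols, fell from 78.5 and 79.1 CPM to 37.2 and 38.8 CPM (-1.05 ± 0.05). HSPD1, the mitochondrial chaperonin, fell from 1222 and 1242 CPM to 655 and 680 CPM (-0.88 ± 0.03). In the glycolysis and hypoxia list 14 of 32 tested were lower and 7 higher, among them LDHA at -0.80 ± 0.04 and VEGFA at 0.79 ± 0.04.

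**Figure D3:**
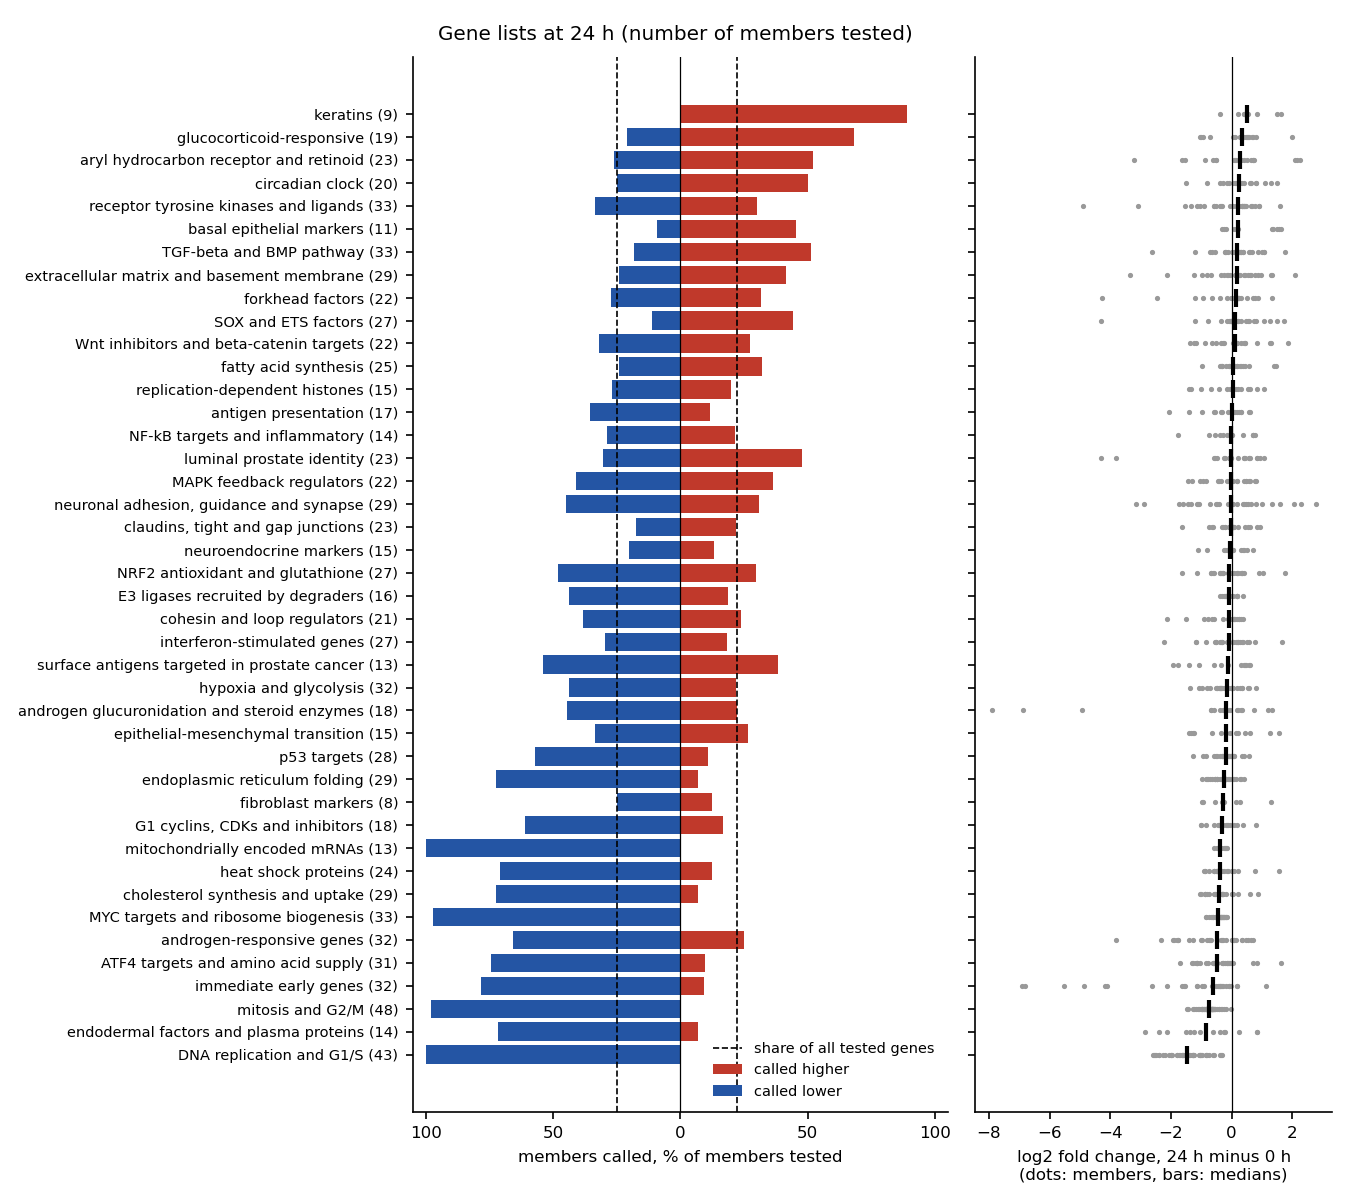
Left, percent of tested members of each gene list called higher (red, to the right) or lower (blue, to the left) at 24 h, with dashed lines at the shares of all tested genes, 22.1% and 24.8%; right, log2 fold change of each member (dots) and the list median (bars). Replication, mitosis, ribosome biogenesis and mitochondrially encoded genes are blue almost throughout, and keratins are red.

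Immediate early genes, which growth signals and stress switch on within minutes, held some of the largest falls, and these were already present at 1 h. Of 32 tested 25 were lower at 24 h, 12 at least 2-fold, and 3 were higher (1 by DESeq2 or without 24 h replicate 2), with a median of -0.63. FOS was 419 and 397 CPM at 0 h, 8.87 and 8.18 CPM at 1 h and 9.48 and 8.37 CPM at 24 h. FOSB was 382 and 381 CPM at 0 h, 3.55 and 3.29 CPM at 1 h and 3.05 and 3.30 CPM at 24 h. EGR1 was 428 and 408 CPM at 0 h, 22.0 and 22.4 CPM at 1 h and 23.5 and 25.1 CPM at 24 h. In all 3 the 0 h libraries stood apart and the libraries at both later times lay together. The test of 24 h against 1 h gave a log2 fold change of 0.06 ± 0.08 for FOS (adjusted p = 0.608), -0.11 for FOSB (adjusted p = 0.533) and 0.12 ± 0.06 for EGR1 (adjusted p = 0.0686). The shCtrl libraries, scaled in one fit with the 0 h and 24 h libraries, had 66.8 and 62.3 CPM of FOS, 10.9 and 11.6 CPM of FOSB and 2.02 and 2.96 CPM of EGR3, whereas EGR3 was 196 and 188 CPM at 0 h in that fit. The 0 h libraries thus stood high for these genes relative to the other control cells of the series as well, and the source of that difference was not tested. The feedback phosphatases of the MAPK pathway that restrain such signals fell in part, DUSP5 (-1.30 ± 0.19), DUSP1 (-1.04 ± 0.06) and DUSP6 (-0.93 ± 0.11) among them. In that list 9 of 22 tested were lower and 8 higher.

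Other transcription factors are listed here by family. In the forkhead family 7 of 22 tested were higher and 6 lower. FOXO1, a target of insulin signalling that halts growth, rose from 14.5 and 17.2 CPM to 37.6 and 41.9 CPM (1.33 ± 0.08, adjusted p = 4.9e-15), and FOXO3 and FOXO4 were higher as well (0.50 and 0.87). FOXJ1, the factor of motile cilia, fell from 2.81 and 3.26 CPM to 0.154 and 0.153 CPM (-4.28 ± 0.36) and was at 0.118 and 0.119 CPM at 1 h. FOXM1, which drives mitotic genes, fell from 71.3 and 63.4 CPM to 35.6 and 34.7 CPM (-0.94 ± 0.06). Of 27 tested SOX and ETS factors 12 were higher and 3 lower, or 1 lower by DESeq2 or without 24 h replicate 2. SOX9, a progenitor factor of prostate epithelium, rose from 45.7 and 43.1 CPM to 149 and 146 CPM (1.73 ± 0.05, adjusted p = 5.88e-24), and was at 101 and 99.1 CPM at 1 h. ETS2 rose from 94.0 and 90.0 CPM to 214 and 227 CPM (1.26 ± 0.04). CEBPB rose from 8.74 and 8.58 CPM to 26.5 and 27.6 CPM (1.64 ± 0.09).

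Endodermal factors and plasma protein genes, a group FOXA proteins are known for in liver, were low but mostly fell. Of 33 listed only 14 passed the count filter, of which 10 were lower and 1 higher, with a median of -0.83. HNF4G, a nuclear receptor of gut, fell from 18.4 and 20.6 CPM to 8.74 and 7.76 CPM (-1.24 ± 0.10, adjusted p = 4.35e-12). The plasma proteins AMBP (-2.40 ± 0.31) and ALB (-1.38 ± 0.19) fell from levels of at most 5.6 CPM. A filter on low values keeps such genes through the group in which they are high, so this count gives a description only. By DESeq2 the count of lower members was 6.

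Signalling ligands and receptors changed in both directions, as did protein-coding genes at large, of which 24.7% were higher and 30.9% lower. The receptor tyrosine kinase list (30.3% and 33.3%) and the Wnt list (27.3% and 31.8%) lay near those shares. In the list of receptor tyrosine kinases and ligands 10 of 33 tested were higher and 11 lower. Beside IGF1, the ligand HGF fell from 2.46 and 1.29 CPM to 0.308 and 0.122 CPM (-3.10 ± 0.44), and its receptor MET from 4.92 and 5.09 CPM to 2.25 and 1.71 CPM (-1.34 ± 0.19). INSR, the insulin receptor, rose from 86.5 and 87.9 CPM to 169 and 159 CPM (0.91 ± 0.04), ERBB3 from 228 and 220 CPM to 390 and 381 CPM (0.79 ± 0.04), and IGF1R fell by 0.51 on the log2 scale. In the TGF-beta and BMP list 17 of 33 tested were higher and 6 lower. Its ligands went opposite ways: TGFB3 rose from 16.4 and 17.2 CPM to 56.7 and 58.3 CPM (1.78 ± 0.06), and TGFB2 fell from 46.4 and 49.0 CPM to 7.76 and 7.63 CPM (-2.63 ± 0.08). The BMP target ID1 rose from 154 and 179 CPM to 359 and 342 CPM (1.07 ± 0.05) and was at 384 and 399 CPM at 1 h. In the Wnt list 6 of 22 tested were higher and 7 lower, with the receptor FZD1 up from 56.2 and 52.0 CPM to 185 and 204 CPM (1.84 ± 0.05) and the nuclear factor LEF1 down from 32.8 and 30.2 CPM to 13.5 and 11.0 CPM (-1.36 ± 0.09).

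Of 19 tested glucocorticoid-responsive genes 13 were higher and 4 lower, with a median of 0.36. SGK1, a kinase of salt and growth control, rose from 13.7 and 13.1 CPM to 54.1 and 52.7 CPM (1.99 ± 0.07, adjusted p = 4.49e-21) and was at 45.9 and 46.1 CPM at 1 h. NR3C1, the glucocorticoid receptor, was higher by 0.29 and NR3C2, the mineralocorticoid receptor, fell by 0.94 on the log2 scale. In the aryl hydrocarbon and retinoid list 12 of 23 tested were higher and 6 lower. CYP26B1, which degrades retinoic acid, rose from 3.38 and 3.52 CPM to 16.9 and 16.3 CPM (2.27 ± 0.12), and ALDH1A3, which makes it, from 1.69 and 1.20 CPM to 6.495 and 5.679 CPM (2.08 ± 0.19). Its relative ALDH1A1 fell from 12.2 and 11.4 CPM to 1.26 and 1.28 CPM (-3.21 ± 0.16). In the steroid list, 8 of 18 tested were lower and 4 higher. HSD3B1 (1.35 ± 0.25) and HSD17B3 (1.20 ± 0.18), which act in androgen synthesis, rose from at most 2.37 CPM. AKR1C3, which acts there too, was lower, at -0.74 to -0.56 over the alternative settings, and lost its call by DESeq2. Enzymes of androgen synthesis thus did not move as one.

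Adhesion and matrix genes changed in both directions. The shares called in the epithelial-mesenchymal list (26.7% higher and 33.3% lower) lay near those of protein-coding genes (24.7% and 30.9%). Among 29 tested genes of neuronal adhesion and guidance 13 were lower and 9 higher. The ephrin EFNB2 rose from 47.1 and 45.6 CPM to 229 and 222 CPM (2.28 ± 0.04, adjusted p = 1.2e-27), whereas the ephrin receptor EPHA7 fell from 67.3 and 71.5 CPM to 7.85 and 7.91 CPM (-3.14 ± 0.07). The protocadherin PCDH19 fell from 56.6 and 56.2 CPM to 7.67 and 7.66 CPM (-2.88 ± 0.08). Of 29 tested matrix genes 12 were higher and 7 lower. Subunits of laminin-332 went apart, LAMA3 falling from 71.8 and 66.3 CPM to 7.39 and 6.26 CPM (-3.34 ± 0.08) and LAMB3 rising from 9.24 and 9.09 CPM to 21.4 and 24.6 CPM (1.33 ± 0.09). FN1, fibronectin, fell from 404 and 393 CPM to 154 and 150 CPM (-1.39 ± 0.04), and VIM, a mesenchymal filament, from 17.8 and 16.7 CPM to 7.42 and 6.84 CPM (-1.27 ± 0.10). In the epithelial-mesenchymal list 4 of 15 tested were higher and 5 lower. TWIST1, a factor of that program, rose from 12.6 and 14.3 CPM to 32.2 and 33.2 CPM (1.28 ± 0.08).

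The remaining lists follow in brief, to be read against 22.1% higher and 24.8% lower of all tested genes. Of 27 tested interferon-stimulated genes 5 were higher and 8 lower (2 and 5 by DESeq2, 3 and 6 without 0 h replicate 2), with OAS3, an antiviral synthetase, falling from 13.6 and 15.3 CPM to 3.32 and 2.81 CPM (-2.24 ± 0.13). Of 14 tested NF-kB targets 3 were higher and 4 lower. Of 23 tested junction genes 5 were higher and 4 lower, and of 25 tested fatty acid genes 8 were higher and 6 lower. Clock genes had 10 of 20 tested higher and 5 lower (3 lower by DESeq2 or without replicate 1 of either time), and antioxidant genes 8 of 27 higher and 13 lower. Antigen presentation had 2 of 17 tested higher (1 by DESeq2 or without 0 h replicate 1) and 6 lower (4 by DESeq2 or without 24 h replicate 1), and replication-dependent histones 3 of 15 higher and 4 lower, though histone copies resemble one another and many lack a poly(A) tail. Ligases that degraders recruit changed little: 3 of 16 tested were higher and 7 lower, within log2 fold changes of -0.37 to 0.39. Fibroblast markers had 1 of 8 tested higher and 2 lower, the higher one (DCN, a matrix proteoglycan) losing its call without any 1 of the 4 libraries and by DESeq2, with a summed level of 38.4 and 39.5 CPM at 0 h and 33.0 and 31.4 CPM at 24 h. Among 4 tested leukocyte markers, which summed to 3.29 and 3.20 CPM at 0 h and 5.17 and 4.24 CPM at 24 h, CD4 was higher, at 0.622 and 1.12 CPM against 2.49 and 1.74 CPM, and PTPRC had at most 8 counts.

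The 1 h libraries show which 24 h changes were early. Both times were compared with the same 0 h libraries, so their values stand side by side and no overlap between them is given. In the fit of 6 libraries 3477 genes (17.4%) were called at 1 h against 0 h. Set against 1 h, 24 h had 9159 called genes (45.7% of 20027 tested), 4247 higher (21.2%) and 4912 lower (24.5%), or 4891 higher and 4259 lower when scaled by library totals alone. ATOH1 went from 6.13 and 6.20 CPM at 0 h to 0.828 and 0.652 CPM at 1 h and 0 at 24 h. RGS1, a G protein regulator, went from 32.3 and 31.3 CPM to 6.00 and 6.10 CPM at 1 h and 0.431 and 1.07 CPM at 24 h. SPDEF, at 31.6 and 32.9 CPM at 1 h, did most of its fall later (24 h against 1 h -3.97 ± 0.11), as did TRGC1, at 42.8 and 41.0 CPM at 1 h, and UGT2B15, at 9.52 and 9.93 CPM. FOLH1 was 320 and 311 CPM at 1 h, and its difference from 0 h did not pass the test (-0.03 ± 0.03, adjusted p = 0.584). The replication list had a median of 0.04 at 1 h against 0 h and the mitosis list 0.01. CEBPB (24 h against 1 h -0.06, adjusted p = 0.514) and ID1 (-0.17 ± 0.06, adjusted p = 0.0603) had by contrast reached 1 h levels whose difference from 24 h did not pass the test.

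**Figure D4:**
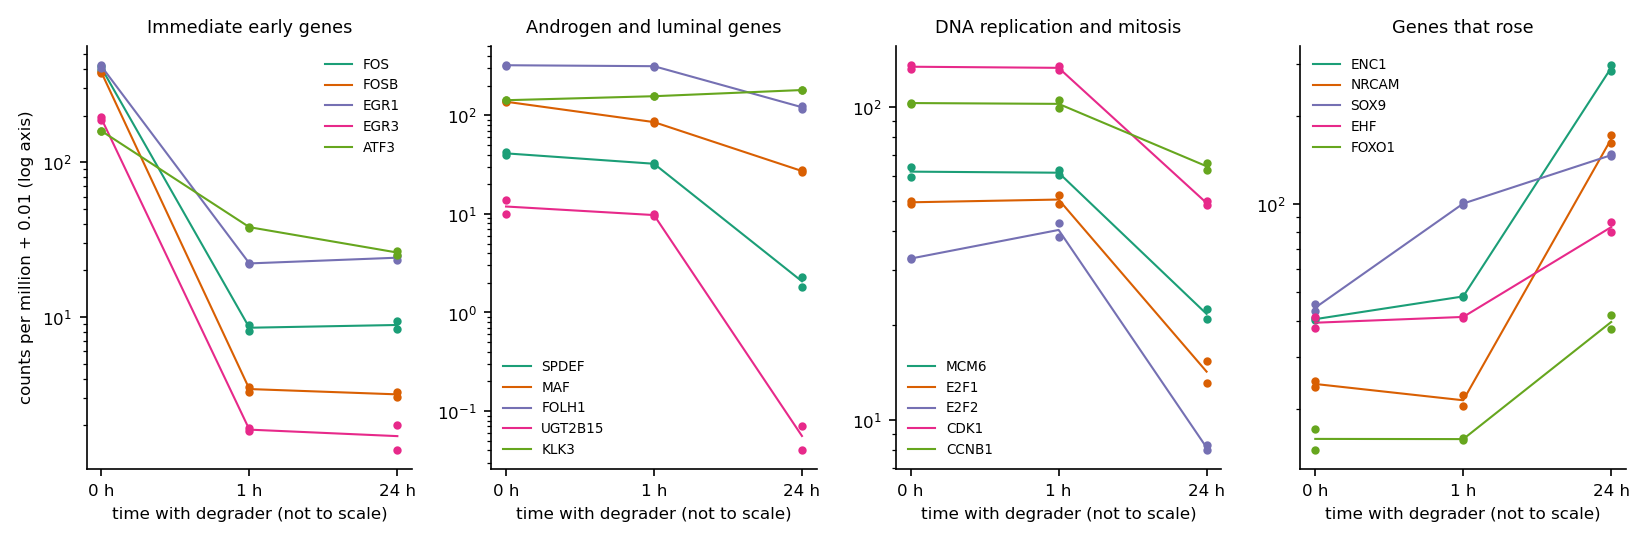
CPM plus 0.01 (y axis, log scale) at 0 h, 1 h and 24 h of degradation for named genes in 4 panels; dots are single libraries and lines join the means. FOS, FOSB, EGR1 and EGR3 drop by 1 h and stay low, and the replication and mitosis genes shown lie lower at 24 h than at 1 h.

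Knockdown of FOXA1 by hairpin shares no library with the 24 h comparison, so the changes can be tested against each other for each gene. The hairpin titles name neither the tag nor a time. Starting levels differed for some genes, such as TRGC1, at 53.4 and 53.5 CPM at 0 h and 6.65 and 6.81 CPM in shCtrl. What underlies a difference between the systems therefore cannot be told apart. FOXA1 mRNA was 401 and 433 CPM in shCtrl and 297 and 304 CPM in shFOXA1 (log2 fold change -0.47 ± 0.05). Most of it thus remained with the hairpin, and its level in shCtrl was above that given earlier for 0 h. The extent of FOXA1 loss was not compared between the systems. In the 8-library fit 5950 of 20795 genes (28.6%) were called in the knockdown, 13.9% higher and 14.7% lower. Of the 9195 genes called at 24 h and the 5862 called in the knockdown among genes in both fits, 3919 were called in both and 3098 of these (79.1%) in the same direction. The same-direction genes were 33.7% of the 24 h calls and 52.8% of the knockdown calls. Of 206 genes called and at least 2-fold changed in both, 164 went the same way and 42 opposite ways. Across all genes in both fits the changes had a Spearman rho of 0.307. The change differed between the systems for 4712 genes (22.7%), with the 24 h change above in 1966 (9.45%) and below in 2746 (13.2%). Scaled by library totals alone, the split was 2539 above and 2287 below.

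Cell cycle genes fell in both systems, and by more at 24 h. In the knockdown 41 of 43 replication genes were lower (median -0.44) and 48 of 48 mitosis genes (median -0.44). The 24 h change was below the knockdown change for 40 of 43 replication and 25 of 48 mitosis members, and above it for 2 mitosis members. Cholesterol genes were also lower in both, 23 of 29 in the knockdown with a median of -0.50. Ribosome biogenesis did not: 4 of 33 were lower and 5 higher in the knockdown, and 28 of 33 differed, all with the 24 h change below. Mitochondrially encoded mRNAs were higher in 10 of 13 in the knockdown and lower in 13 of 13 at 24 h, and the difference was called in all 13. Among 32 androgen-responsive genes 12 were higher and 5 lower in the knockdown, and the 24 h change was below the knockdown change for 17 and above for 1. MAF rose by 2.75 on the log2 scale in the knockdown, from 9.77 and 10.0 CPM to 63.3 and 69.6 CPM, against its fall at 24 h. The difference for MAF was -5.07 (adjusted p = 3.38e-19). FKBP5 rose in both, by 1.46 in the knockdown and 0.46 at 24 h.

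**Figure D5:**
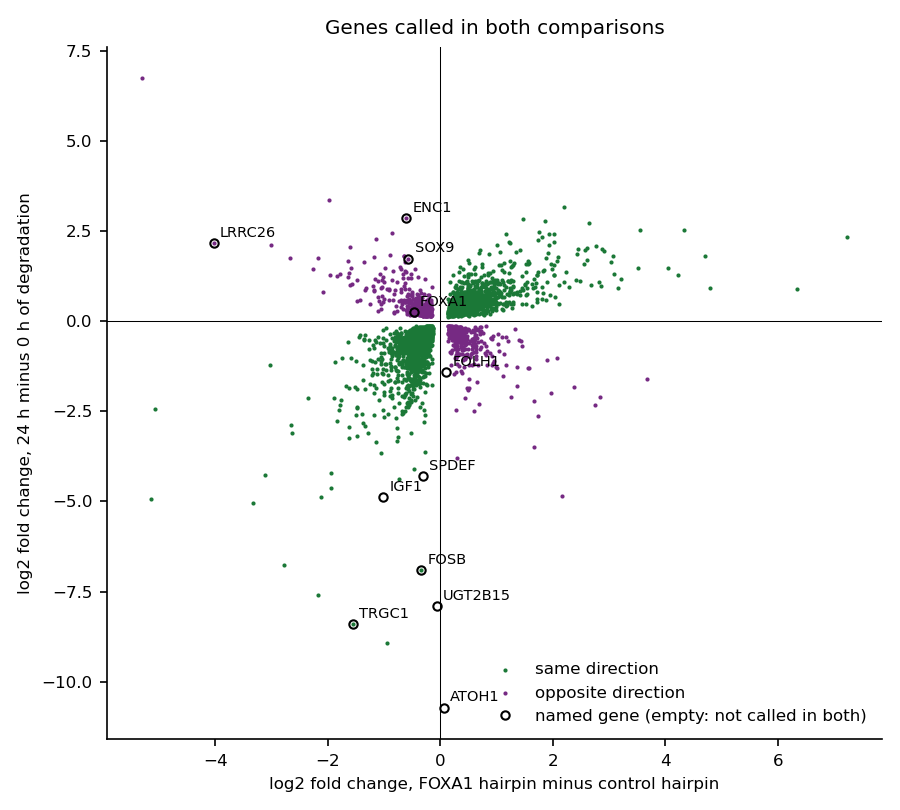
Log2 fold change in the knockdown (x axis) against that at 24 h (y axis) for genes called in both, green where the direction is the same and purple where it is opposite; black circles mark named genes, whether or not called in both. UGT2B15 lies far below 0 at 24 h, at -7.90 in this fit, and at -0.07 in the knockdown.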

How the data were processed

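RNA-seq counts per gene were deposited by the authors, with hg19, STAR, featureCounts and DESeq2 named in the submitters' processing notes; settings, annotation and strand are not given in the sources used here. The deposited counts were not normalized, and 0 columns of other samples were present. Genes were filtered with filterByExpr, scaled by TMM and tested with edgeR 4.0.16 (R 4.3.3), quasi-likelihood, Benjamini-Hochberg adjusted over all genes tested, called under 0.05. The SE is the log2 fold change divided by the square root of F. CPM use the TMM-scaled totals of each fit. The 24 h against 1 h test used 6 libraries and the knockdown interaction 8. Members and lists were chosen with earlier results of these data known. Named were the 15 largest rises and falls among called genes reaching 1 CPM without overlap, and up to 4 called members a list and direction. Also named were the 10 smallest adjusted p each way, and FOXA1 to FOXA3 and members that did not pass. The 5 largest interactions each way were named among genes reaching 1 CPM in both comparisons. Some named genes are not reported here. Some other members, such as KLK3, MKI67, CCNB1, E2F1, E2F2, MCM6, NIPBL, CDKN1A and MYC, were named for their known roles after their values were seen. The labels do not say that same-numbered replicates shared a batch. The correlation of their deviations was 0.018 across genes, which cannot exclude one. On simulated counts of the 24 h comparison, 50 genes were given each rise and 50 a 2-fold fall. After the filter 19201 genes were tested, among them 50 for each rise and 48 for the fall. Of these, 68% of 1.5-fold, 84% of 2-fold and 98% of 4-fold rises and 72.9% of 2-fold falls were recovered, with 5.33% false calls. Far fewer genes were changed there than were called in the data, so these shares may not carry over. DESeq2 1.42.0 and other scalings, filters and fits were alternatives.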

Additional observations from a re-analysis of the deposited data

Results flagged for a closer look

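For 10 genes the change at 24 h and the change in the knockdown differed by a tested interaction term (edgeR, adjusted over 20795 genes). These had the largest differences each way among genes with a symbol that reached 1 CPM in both libraries of a group in each comparison. ATOH1 did not reach that level in the hairpin libraries. Its difference, fitted to 0 counts at 24 h, was -10.8 (adjusted p = 0.000558). FOSB differed by -6.56 on the log2 scale (adjusted p = 1.88e-19): it fell from 383 and 380 CPM at 0 h to 3.07 and 3.32 CPM at 24 h, and was 10.9 and 11.6 CPM in shCtrl and 8.24 and 9.48 CPM in shFOXA1. UGT2B15 differed by -7.83 (adjusted p = 2.99e-11) and was 15.7 and 18.1 CPM in shCtrl and 16.8 and 15.5 CPM in shFOXA1. TRGC1 differed by -6.86 (adjusted p = 6.99e-08), with 6.65 and 6.81 CPM in shCtrl and 3.04 and 1.54 CPM in shFOXA1. RNLS differed by -6.78 (adjusted p = 2.33e-07), with 2.10 and 2.22 CPM in shCtrl and 2.15 and 2.52 CPM in shFOXA1. HISLA differed by -7.98 (adjusted p = 0.00906), a fitted value that depends on the prior count since both 24 h libraries had 0 counts; it was 11.8 and 11.2 CPM in shCtrl and 8.01 and 3.94 CPM in shFOXA1.

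In the other direction LRRC26 differed by 6.20 (adjusted p = 3.36e-08), at 0.564 and 0.913 CPM at 0 h and 2.45 and 4.24 CPM at 24 h, against 3.00 and 2.36 CPM in shCtrl and 0.172 and 0.148 CPM in shFOXA1. RAB5IF differed by 5.12 (adjusted p = 3.2e-08), at 4.57 and 6.02 CPM at 0 h and 20.6 and 25.2 CPM at 24 h, against 17.2 and 23.4 CPM in shCtrl and 2.30 and 2.72 CPM in shFOXA1. C19orf81 differed by 3.72 (adjusted p = 3.56e-06), C4orf48 by 4.43 (adjusted p = 0.00775) and SRXN1 by 3.93 (adjusted p = 0.00535). SRXN1 was 2.08 and 2.31 CPM at 0 h and 4.77 and 10.1 CPM at 24 h. That rise lost its call after GC content and length correction and in the fit of the 6 dTAG libraries. C4orf48 and HISLA lost their call without either 0 h replicate (adjusted p = 0.0549 to 0.0632 and 0.0713 to 0.0721), and SRXN1 without either shFOXA1 replicate (adjusted p = 0.0771 to 0.0916).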

How the results depend on the processing

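The 9195 genes called at 24 h became 9215 with RLE size factors, 9273 scaled by library totals, 9012 without a count filter, 8947 with at least 1 CPM, 9148 after GC content and length correction, 9428 in the fit of 6 libraries and 6496 by DESeq2. Leaving out 1 replicate gave 7773 to 8246, where the lone library was assumed to vary like the others. With the replicate block 9868 were called at 24 h against 0 h, 9296 against 1 h and 4552 in the interaction. The labels do not say that the numbers pair the samples. Leaving out 1 replicate gave 7405 to 9433 calls against 1 h and 3431 to 5940 in the interaction. Interaction calls rose without either shFOXA1 library and fell without any other library. In the values of named genes against 0 h over these settings, 3987 kept direction and side of the threshold, 120 lost the call and 0 reversed. List medians were not part of this count. Against 1 h, 2 values that were not called changed sign without 24 h replicate 1: over left-out replicates FOS ran from -0.037 to 0.14 and EGR3 from -0.44 to 0.10; the cause was not tested. EGR1 passed there (0.17), with library totals (0.16) and with at least 1 CPM (0.14). Depth limits genes of few counts, whose intervals are given.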
